A study of Mus musculus with 4 samples.

Results

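The UDP-glucuronosyltransferase (UGT) and glutathione S-transferase (GST) genes were followed in liver RNA of obese mice that received the hypothalamic neuropeptide GALP, galanin-like peptide, through the nose. Members were the genes whose array name begins with Ugt1a, Ugt2a, Ugt2b or Ugt3a, or is that of a cytosolic, kappa or microsomal GST. This gave 38 genes, 14 UGT and 24 GST, out of 26582 gene names with a probe, and they were read by 52 probes of 60 bases. Each gene is given by its brightest probe.

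The mice were male C57BL/6J, bought at 8 weeks of age, given 2 weeks of acclimatization and then kept on a high-fat diet (14 weeks) until they weighed at least 40 g, a model called diet-induced obesity (DIO). Both arms kept the diet and received 2 µL into the nose for 11 days. The GALP arm received 1 nmol of porcine GALP, dissolved in saline with 5% α-cyclodextrin. The control arm received saline, and the paper does not say whether this saline held cyclodextrin. Liver RNA was pooled from 4 GALP mice with greater weight loss (the greater-loss pool), from 4 GALP mice with less weight loss (the less-loss pool) and from 8 saline mice (the control). Both GALP pools were set against the control pool, each on 2 dual-colour Agilent arrays with Cy3 and Cy5 exchanged, which gave 4 arrays on 1 slide. A value of a gene is the log2 ratio of GALP over control, averaged over the 2 arrays of a pool, and SDs are between the pools (n = 2). The control pool is 1 sample that enters every ratio, so no SD or test holds its spread. The GALP mice were pooled by their weight loss, and each pool is 1 sample. The ratio of a pool cannot tell fewer cells of a type from less RNA per cell.

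UGT enzymes sit in the endoplasmic reticulum and transfer the sugar acid of UDP-glucuronate to bilirubin, steroids, bile acids and drugs, which then leave in bile or urine. UGT1A transcripts each begin with an exon of their own and share the remaining exons, whereas UGT2B enzymes come from separate neighbouring genes. GST enzymes join glutathione to reactive electrophiles such as lipid peroxidation products, and they are grouped into classes by sequence. Both families are used by hepatocytes in the second phase of detoxification and are known to respond to xenobiotic and electrophile sensors.

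The sequences of the probes that carried the largest ratios are given first. Agilent gives mm9 positions and names no exon, but a position far longer than the probe, as for Gsta1, means that the probe joins exons across an intron. The Gsta1 probe (chr9:78083844-78087325, plus strand) spans 3482 bases of the genome, while the Gsta2 probe (chr9:78181644-78181703, minus strand) lies in 60. The capitals mark the longest run that the 2 probes share.

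Gsta1: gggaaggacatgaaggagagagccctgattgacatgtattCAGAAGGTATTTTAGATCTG
Gsta2: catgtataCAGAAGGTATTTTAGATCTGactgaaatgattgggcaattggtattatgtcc

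The shared run is 20 bases long. Slid onto each other, the probes overlap by 28 bases, of which 27 are equal, and the remaining base is T40A (the base of the Gsta1 probe, its position from the 5′ end, and the base of the Gsta2 probe). Of 1310 pairs of probes of different member genes, this was the only pair with a shared run of at least 15 bases, and the next longest run was 12. Only probes were compared with each other. Whether a probe of any member matches the transcript of another gene was not checked. The 2 genes are close paralogs, so the division of signal between them is uncertain. The probes of Ugt1a9 (chr1:89968031-89968090, plus strand) and Gstt2 (chr10:75295206-75295265, minus strand) are shown because they also passed the size of 0.4 set for full values. The brighter (chr19:4035486-4035545) and the dimmer (chr19:4035908-4036723) Gstp1 probes, both on the minus strand, are shown because the gene had opposite directions in the 2 pools at both.

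Ugt1a9: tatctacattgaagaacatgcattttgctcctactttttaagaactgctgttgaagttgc
Gstt2: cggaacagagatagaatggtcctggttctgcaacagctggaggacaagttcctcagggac
Gstp1, brighter: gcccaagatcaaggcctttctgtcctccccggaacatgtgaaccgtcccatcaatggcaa
Gstp1, dimmer: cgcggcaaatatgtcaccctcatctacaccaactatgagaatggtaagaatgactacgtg

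Of the 38 genes, 34 were detected, that is, on every array 1 or both channels stood well above background and a ratio was given. These were all 14 UGT genes and 20 GST genes. Gsto1, an omega class enzyme that reduces dehydroascorbate, was bright, but its spot carried an outlier mark on 1 array of the less-loss pool. Its log2 ratios on the other 3 arrays were 0.06, 0.20 and 0.20, and it was not tested. Gsto2, Gstt4 and Mgst2 were not detected.

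The rule of the methods called no member. For this rule both pools must pass a fold of 1.5 upward or 0.75 downward and all 4 arrays must share the direction and have a software p-value below 0.01. The paper gives the folds, the p-value limit and a selection of changes common to both pools. It does not state on how many arrays the limit must hold. The strict reading of all 4 was taken here, so counts by it are not those of the paper. This p-value comes from the error model of Agilent Feature Extraction and compares the extracts on 1 array. Among all 11371 detected genes, by the brightest probe of each, 0.176% were called higher and 0.343% lower. With the p-value asked on at least 1 array of each pool, 1 member, Gsta1, was called higher and none lower, against 0.352% and 0.915% of all detected genes. With limma, 0 members passed an adjusted p of 0.05, as did 0% of all 41037 probes, and the smallest adjusted p of a member was 0.374. At an unadjusted p under 0.05, 3 members were higher and 6 lower, against 8.69% and 11.4% of the detected genes. limma had 1 residual degree of freedom here, and over all probes it found 0 of 100 simulated probes with a log2 change of 3. Its count of 0 members does not show that they were unchanged. The sizes below are therefore values of 2 pools, and where a gene is described as above or below 0 no test was passed.

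The median log2 ratio of the 14 UGT genes was -0.15, with -0.15 in the greater-loss pool and -0.13 in the less-loss pool, beside a median of -0.01 over all detected genes. This difference from all detected genes varied with the dye. On the arrays with GALP in Cy5 the UGT median was -0.18 beside 0.02 over all detected genes, and on those with GALP in Cy3 it was -0.062 beside -0.045. In the mean of the pools the 3 UGT1A genes were above 0 and the 11 other UGT genes below 0. The same held on the arrays with GALP in Cy5, whereas on those with GALP in Cy3 the genes above 0 were 2 of 3 UGT1A, 2 of 2 UGT2A, 1 of 7 UGT2B and 1 of 2 UGT3A. Below 0 on all 4 arrays were 5 of the 14, or 35.7%, against 14.5% of all detected genes. Above 0 on all 4 was 1 of the 14, or 7.14%, against 12.8% of all detected genes. The plot of UGT genes by array shows both orientations.

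**Figure D1:**
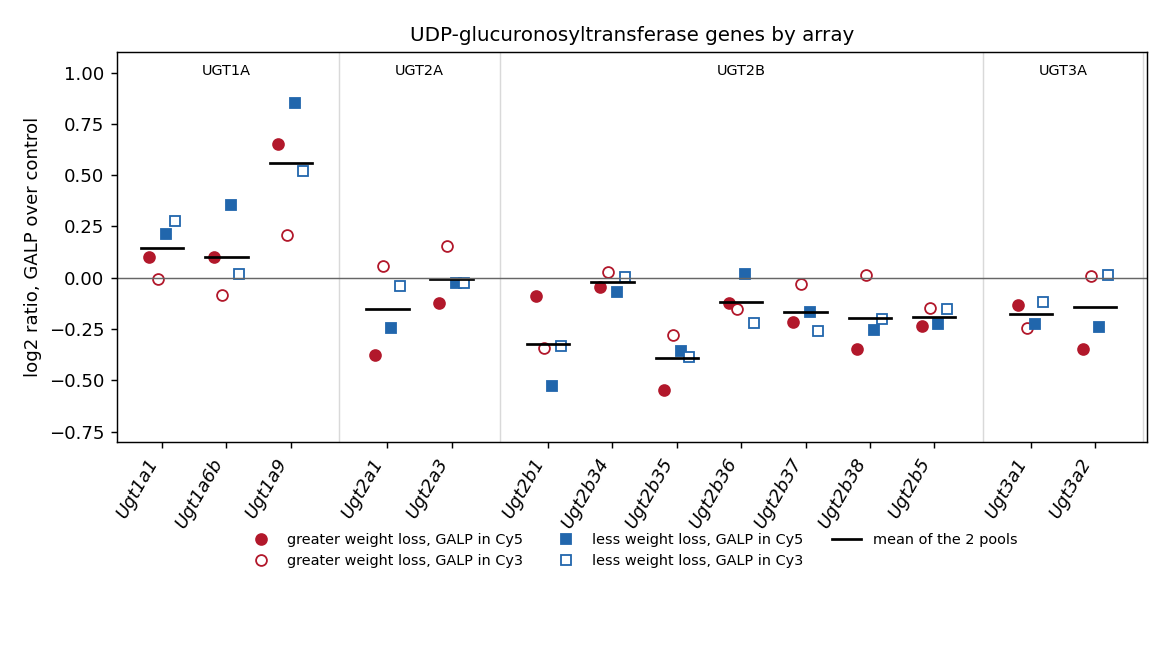
Log2 ratio of GALP over control (y axis) of the 14 UGT genes (x axis), by subfamily. Each symbol is 1 array, filled for GALP in Cy5 and open for GALP in Cy3, and bars are the mean of the 2 pools. Ugt1a9 lies above 0 and Ugt2b35 below 0 on all 4 arrays.

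Among the UGT1A genes, Ugt1a9, which glucuronidates phenols, had log2 ratios of 0.65 and 0.21 in the greater-loss pool and 0.85 and 0.52 in the less-loss pool, with GALP in Cy5 named first here and below. All 4 were above 0, and in each pool the Cy5 array was the higher. The mean was 0.56 ± 0.18 (SD, n = 2 pools), a 1.47-fold ratio, with a 95% interval from limma of -0.10 to 1.22 and an adjusted p of 0.462. The software p-value was under 0.01 on 2 of the 4 arrays. The probe was dim, with processed signals of 163 to 191 in the GALP channels and 106 to 141 in the control channels. With normexp background correction, which adds an offset of 50, and loess, its log2 ratio was 0.15, so the size of this ratio depends on the combined change of background correction, offset and normalization.

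Ugt1a1, the bilirubin-conjugating enzyme, had a mean log2 ratio of 0.15 ± 0.14, with 0.05 in the greater-loss pool and 0.24 in the less-loss pool. Ugt1a6b, which conjugates small planar phenols, had 0.10 ± 0.12 and was below 0 with normexp and loess (-0.05). Its probes lie at chr1:90115472-90115531, 3′ of the Ugt1a1 probe at chr1:90108880-90108939, and at chr1:90003830-90003889. UGT1A transcripts share their last exons, so the ratio of the brighter probe, at the 3′ end, cannot be assigned to Ugt1a6b alone. The dimmer Ugt1a6b probe, at the 5′ position, read -0.11 in the greater-loss pool and 0.29 in the other. Its processed signals were 48 to 87, against 11330 to 16620 at the brighter probe.

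The 7 UGT2B genes, which conjugate steroids and bile acids, and the 2 UGT2A genes lie in a cluster on chromosome 5. All 9 were below 0 in the mean of the pools, and the median of the 7 UGT2B genes was -0.19. With normexp and loess, or with each array centred on its median, Ugt2a3 and Ugt2b34 moved above 0 and the other 7 stayed below. On the arrays with GALP in Cy3 alone, Ugt2a1, Ugt2a3 and Ugt2b34 were above 0. Ugt2b35, whose mean lay just under the size of 0.4 that was set for full values, was added for its place as the lowest UGT after its values were seen. Its log2 ratios were -0.55 and -0.28 in the greater-loss pool and -0.36 and -0.39 in the less-loss pool, so the pools overlapped. The mean was -0.39 ± 0.03, a 0.762-fold ratio, with an interval of -0.51 to -0.27 and an adjusted p of 0.374 in limma, or 0.0443 with normexp and loess. The software p-value was under 0.01 on 1 of the 4 arrays.

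Ugt2b1 had a log2 ratio of -0.22 in the greater-loss pool and -0.43 in the less-loss pool, and it was below 0 on all 4 arrays. Ugt2b5 (-0.19 ± 0.0012) and Ugt2b37 (-0.17 ± 0.06) were also below 0 on all 4 arrays. Ugt2b38 (-0.20 ± 0.04) and Ugt2b36 (-0.12 ± 0.03) were each below 0 on 3 of the 4. Ugt2b34 was close to 0, at -0.02 ± 0.02. Ugt2a1, described in olfactory epithelium, had -0.15 ± 0.01 at its brightest probe and -0.10 ± 0.05 at a second detected probe. Its remaining probe was not detected. At the brightest probe Ugt2a1 was at 0.0077 on the arrays with GALP in Cy3, so its direction rested on those with GALP in Cy5. With normexp and loess the brightest probe gave -0.07. Ugt2a3 had -0.0059 ± 0.03.

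The UGT3A enzymes use other sugar donors than UDP-glucuronate. Ugt3a1 was below 0 on all 4 arrays, with a mean log2 ratio of -0.18 ± 0.01. Ugt3a2 had -0.14 ± 0.04 at its brightest probe and -0.13 ± 0.07 at the other. On the arrays with GALP in Cy3 its brightest probe was at 0.01 on both, so its direction rested on the arrays with GALP in Cy5.

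The GST genes as a family were centred on 0. The median log2 ratio of the 20 detected GST genes was 0.03, with 10 above and 10 below 0, and 17 of the 20 had a ratio under 0.3 in size. Above 0 on all 4 arrays were 4 of the 20, or 20.0%, against 12.8% of all detected genes, and below 0 on all 4 was 1, or 5.0%, against 14.5%. The 4 were Gsta1, Gsta2, Gstt2 and Gstt3, of the alpha and theta classes.

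**Figure D2:**
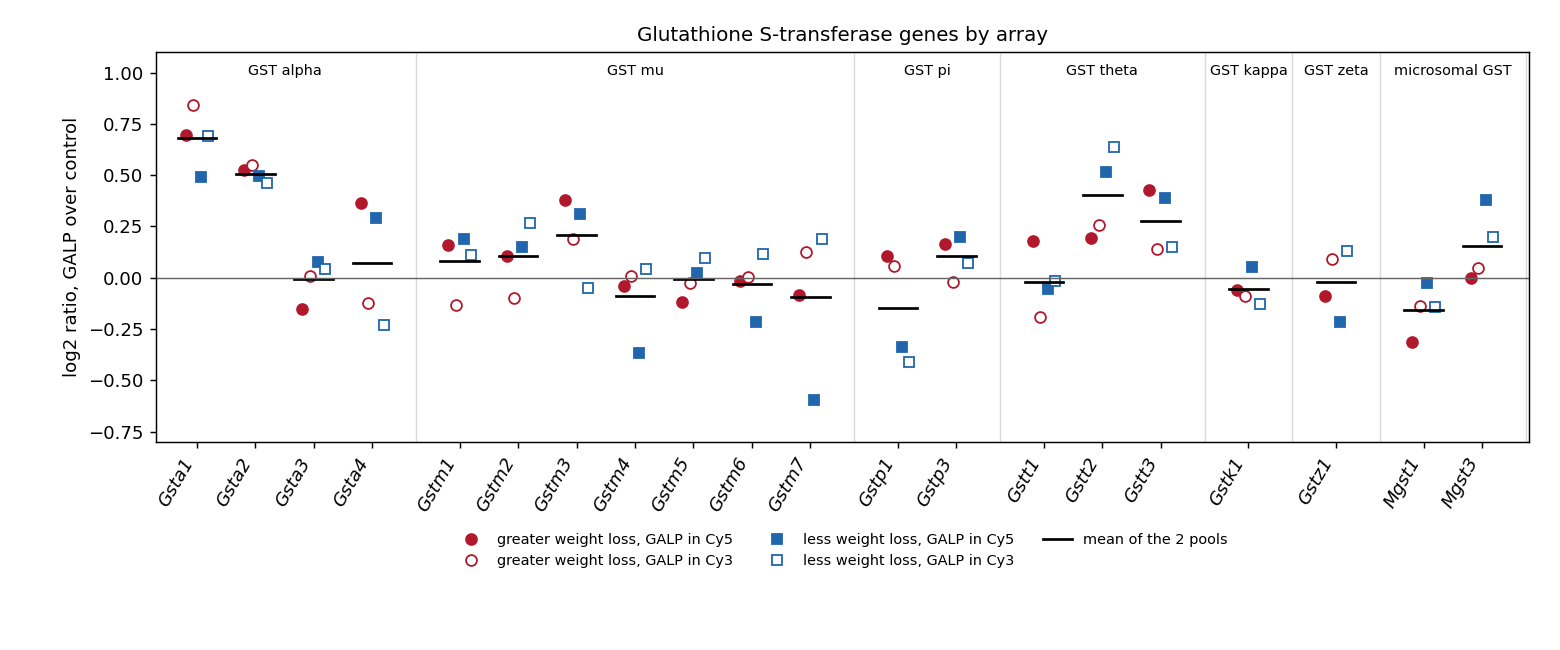
Log2 ratio of GALP over control (y axis) of the 20 detected GST genes (x axis), by class, drawn as in the plot of UGT genes. Gsta1 and Gsta2 lie above 0 on all 4 arrays, and the 2 arrays of Gstp1 in the less-loss pool lie below 0.

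Among the alpha class, Gsta1, which acts on organic hydroperoxides and other electrophiles, had the highest ratio of all members. Its log2 ratios were 0.70 and 0.84 in the greater-loss pool and 0.49 and 0.69 in the less-loss pool. All 4 were above 0, and the difference between the pools was larger in size than in 72.0% of all detected genes. The mean was 0.68 ± 0.13, a 1.60-fold ratio, with 1.70-fold in the greater-loss pool and 1.51-fold in the less-loss pool. The limma interval was 0.22 to 1.14 and the adjusted p 0.392. The software p-value was under 0.01 on 3 of the 4 arrays, and the missing array kept Gsta1 from passing that rule. Of all detected genes, 99.5% had a lower mean log2 ratio.

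Gsta2, the paralog of Gsta1, had log2 ratios of 0.52 and 0.55 in the greater-loss pool and 0.50 and 0.46 in the less-loss pool. The 4 values were close together, and the difference between the pools was larger than in 30.1% of all detected genes. The mean was 0.51 ± 0.04, a 1.42-fold ratio, with an interval of 0.35 to 0.66 and an adjusted p of 0.374 in limma, and the software p-value was under 0.01 on 1 of the 4 arrays. With the 4 arrays entered singly and the pool made a random block, the limma adjusted p of Gsta2 was 0.0359, and with normexp and loess it was 0.0469. In the random block fit, dye-swapped arrays of the same extracts entered as 4 values, with a correlation within pools of -0.389. The p-value of that fit does not measure replication over mice. Gsta3, a constitutive alpha class enzyme of liver, had -0.0064 ± 0.09 and was above 0 with normexp and loess or with centring. Gsta4, which clears the lipid aldehyde 4-hydroxynonenal, was above 0 on both arrays with GALP in Cy5 (0.37 and 0.29) and below 0 on both with GALP in Cy3 (-0.13 and -0.23), so its mean of 0.07 ± 0.07 had no direction apart from the dye.

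Since Gsta1 and Gsta2 were the members with the highest ratios of their family, their promoters were compared, from 250 bases before to 50 after the gene start (RefSeq, GRCm38.p6). The promoter window of Gsta1 lies at chr9:78230419-78230718 on the plus strand and that of Gsta2 at chr9:78347096-78347395 on the minus strand. Each sequence is written 5′ to 3′ along its gene, and the capitals mark the longest run that both share.

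Gsta1 promoter: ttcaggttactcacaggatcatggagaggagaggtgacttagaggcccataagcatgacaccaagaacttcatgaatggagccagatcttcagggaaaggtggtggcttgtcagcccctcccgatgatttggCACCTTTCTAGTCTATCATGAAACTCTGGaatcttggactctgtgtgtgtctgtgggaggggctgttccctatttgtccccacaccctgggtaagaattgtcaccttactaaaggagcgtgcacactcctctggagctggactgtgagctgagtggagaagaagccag
Gsta2 promoter: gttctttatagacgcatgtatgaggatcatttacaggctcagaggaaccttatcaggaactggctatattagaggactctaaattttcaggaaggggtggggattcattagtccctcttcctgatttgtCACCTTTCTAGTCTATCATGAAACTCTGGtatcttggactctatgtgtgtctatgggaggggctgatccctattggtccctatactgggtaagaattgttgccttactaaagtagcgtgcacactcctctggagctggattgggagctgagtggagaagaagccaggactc

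In a global alignment 239 of 313 columns were equal, or 76.4%, and the shared run was 29 bases long. The core of the antioxidant response element, TGACNNNGC, was searched on both strands and was found in neither promoter. It was found in 4 of the 34 members with a promoter in the table (Gsta3, Gstm5, Gstm7 and Mgst1) and in 14.0% of 27025 genes. The core of the xenobiotic response element, GCGTG, was found in both, in 7 of the 34 members (the others were Gstm1, Gstm5, Gstp1, Gstp3 and Mgst3) and in 35.2% of all genes. A match or its absence is a description of these letters in a window of 300 bases. Sequence further upstream was not searched.

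The mu class enzymes are abundant hepatic GSTs that act on epoxides and quinones. Their 7 genes lie together on chromosome 3 and had mean log2 ratios between -0.09 and 0.21, with a median of -0.0064. None kept its sign on all 4 arrays. Gstm3 was the highest (0.21 ± 0.11), followed by Gstm2 (0.10 ± 0.15) and Gstm1 (0.08 ± 0.10). Gstm1 was at 0.14 at its other probe and at -0.02 with normexp and loess at the brightest. Gstm4 (-0.09 ± 0.10), Gstm7 (-0.09 ± 0.16), Gstm6 (-0.03 ± 0.03) and Gstm5 (-0.0064 ± 0.09) were below 0 in the mean, and of these Gstm5 and Gstm6 were above 0 with normexp and loess and Gstm5 with centring too. The values of Gstm7 at its brightest probe were -0.60 on 1 array and between -0.09 and 0.19 on the other 3. Its other probe was below 0 on all 4 arrays, at -0.12 ± 0.08.

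The pi class had the widest difference between the pools. Gstp1 is the major GST of male mouse liver. Its log2 ratios were 0.11 and 0.06 in the greater-loss pool and -0.34 and -0.41 in the less-loss pool. The difference between its pools was larger in size than in 94.4% of all detected genes. At its dimmer probe the values were 0.43 and 0.01, and -0.22 and -0.55. The pool values at the brighter probe, 0.08 and -0.37, gave a mean of -0.15 ± 0.32 and a difference of -0.46 (less minus greater), which has no test because each pool is 1 sample. Gstp1 was described in full for this difference after its values were seen. Gstp2, its near-identical neighbour, has no probe of its own name, so the signal of the 2 genes cannot be told apart. Gstp3 had 0.10 ± 0.04, with 0.07 and 0.13 in the 2 pools.

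Of the theta class, which acts on small halogenated compounds, Gstt2 had log2 ratios of 0.19 and 0.26 in the greater-loss pool and 0.51 and 0.64 in the less-loss pool. All 4 were above 0 and the less-loss pool was the higher on both arrays, with a pool difference larger than in 90.4% of all detected genes. The mean was 0.40 ± 0.25, a 1.32-fold ratio, with an interval of -0.50 to 1.30 and an adjusted p of 0.618 in limma, and the software p-value was under 0.01 on 1 of the 4 arrays. Gstt3 had 0.28 ± 0.01, with 0.28 in the greater-loss pool and 0.27 in the less-loss pool, and 0.16 with normexp and loess. Its size varied with the dye, at 0.43 and 0.39 with GALP in Cy5 and 0.14 and 0.15 with GALP in Cy3. Gstt1 was at -0.02 ± 0.02.

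**Figure D3:**
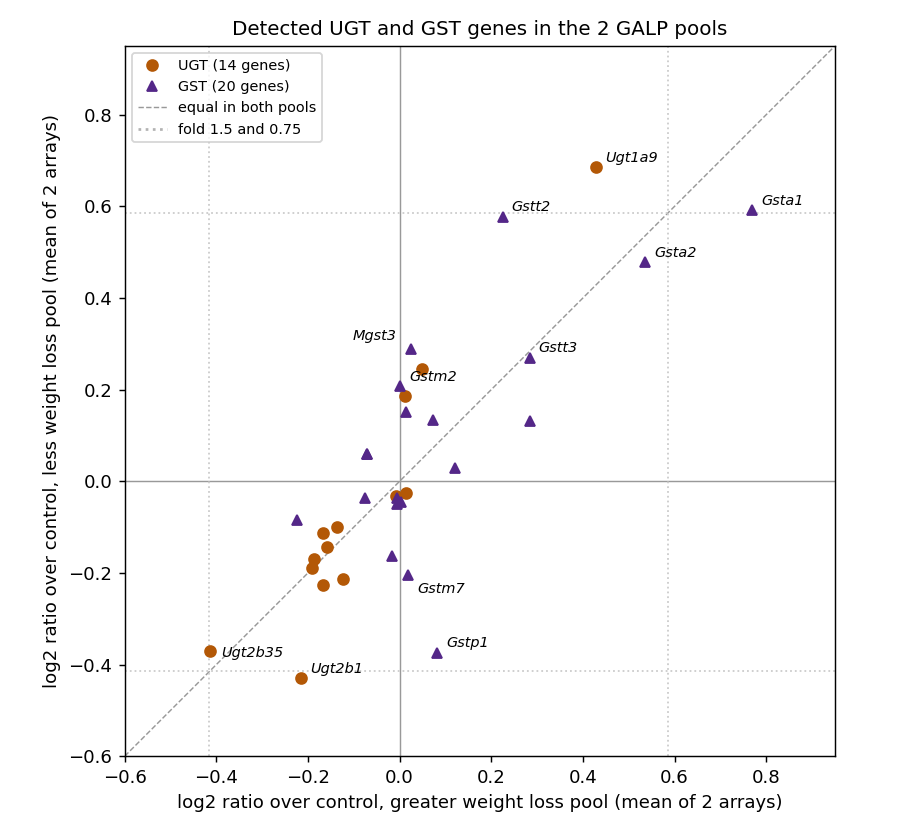
Log2 ratio over control of the 34 detected genes in the greater-loss pool (x axis) and in the less-loss pool (y axis), each the mean of 2 arrays. Gsta1 is the only gene past the 1.5-fold line (dotted) in both pools, and Gstp1 lies to the right of 0 and below 0.

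The remaining classes were near 0. Gstk1, a mitochondrial and peroxisomal enzyme, was at -0.06 ± 0.03 and Gstz1, the maleylacetoacetate isomerase of tyrosine breakdown, at -0.02 ± 0.03, and both were above 0 with normexp and loess. Mgst1, the abundant membrane-bound peroxidase, was below 0 on all 4 arrays at both probes, with means of -0.15 ± 0.10 and -0.19 ± 0.06. Mgst3, linked to leukotriene synthesis, had 0.16 ± 0.19, with 0.02 in the greater-loss pool and 0.29 in the less-loss pool.

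Opposite signs in the 2 pools, on both arrays of each, were seen for 2 of the 34 members, Gstp1 and Gstm5, and for 6.16% of all detected genes. The size of the difference between the pools had a median of 0.09 over the members and 0.10 over all detected genes. The plot of the 2 pools against each other shows that most members lie along the line of equal values. Both axes are ratios over the same control pool, so a deviation of that pool moves a gene equally on both.

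Genes that supply the cofactors, export the conjugates or regulate both families were not called, in either direction, by the rule of the methods (0 of 28 detected genes on 4 lists). Among all detected genes 0.176% were called higher and 0.343% lower, so a count of 0 is near that share. On the UDP-glucuronate list the median of 6 genes was -0.12. Ugdh, which makes UDP-glucuronate, had a log2 ratio of -0.19 ± 0.05 and the nucleotide sugar transporter Slc35d2 had -0.32 ± 0.14, and these were the 2 genes of the list below 0 on all 4 arrays. On the glutathione list the median of 7 detected genes was -0.03, and Ggt1 was not detected. Gclc, the catalytic subunit of the rate-limiting enzyme of glutathione synthesis, had -0.50 ± 0.02, with 4 values between -0.53 and -0.48, no software p-value under 0.01 and an adjusted p of 0.374 in limma. Its limma adjusted p was 0.0245 with the pool as random block and 0.0328 with normexp and loess. The random block fit has the limit given for Gsta2. Gclm, its modifier subunit, had -0.10 ± 0.09, and Chac1, which degrades glutathione, had 0.34 ± 0.27 and was the only gene of the list above 0 on all 4 arrays.

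On the export list the median of 5 detected genes was 0.09, and Abcc1 was not detected. Abcg2, an efflux pump of the canalicular membrane, had -0.38 ± 0.02 and was the only gene of the list below 0 on all 4 arrays. Abcc2, the canalicular pump for glucuronides and glutathione conjugates, had 0.02 ± 0.0075, and Abcc3, its basolateral counterpart, 0.16 ± 0.11. Of the 10 regulators, whose median was 0.04, the electrophile sensor Nfe2l2 was at -0.03 ± 0.07, its repressor Keap1 at -0.16 ± 0.04 and the dioxin receptor Ahr at -0.07 ± 0.09. The xenobiotic receptors Nr1i2 (PXR) and Nr1i3 (CAR) had 0.13 ± 0.02 and 0.23 ± 0.17, and Esr1, the oestrogen receptor, had -0.27 ± 0.07.

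**Figure D4:**
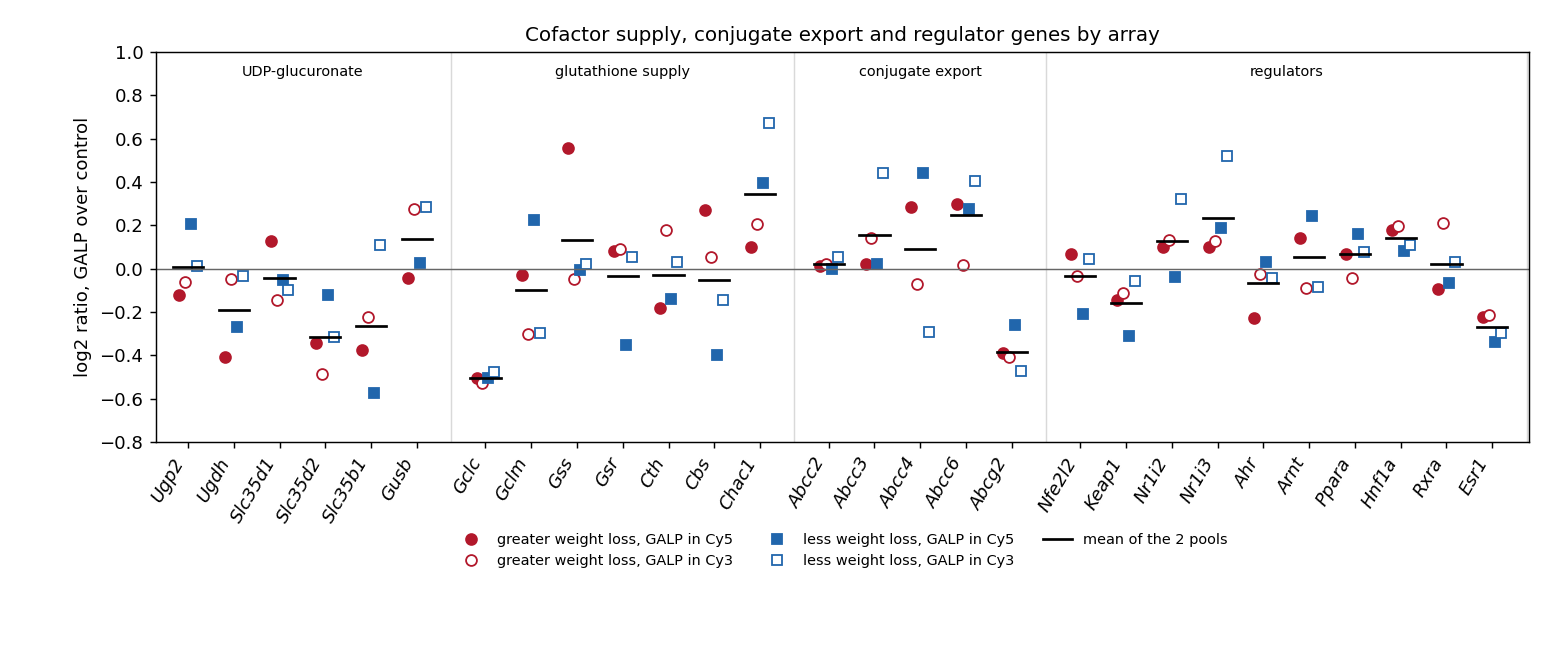
Log2 ratio of GALP over control (y axis) of the 28 detected genes for cofactor supply, conjugate export and regulation (x axis), drawn as in the plot of UGT genes. The 4 values of Gclc lie between -0.53 and -0.48, and those of Abcg2 are all below 0.

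The tissue markers bear on all ratios. The 5 detected hepatocyte markers, albumin among them, had a median log2 ratio of 0.01, and the summed signal of the list was 139000 to 189000 in the GALP channels and 138000 to 185000 in the control channels. The median of the 5 pancreatic exocrine markers was -1.44, and their summed signal was 5610 to 121000 in the GALP channels and 65400 to 82900 in the control channels. Cpa1, one of them, was at -3.34 and -3.37 in the greater-loss pool and at 0.63 and 0.84 in the less-loss pool, the reverse of Gstp1 and the same order as Gstt2. Of the stomach markers Gkn2 and Tff1 were called lower, and Gkn1 was at background in every channel. Tff2, also detected, was at -3.51 and -4.08 in the greater-loss pool and at 0.68 on both arrays of the less-loss pool. The median of 5 Kupffer cell markers was 0.43, and 3 of them were above 0 on all 4 arrays, Marco (0.87 ± 0.25, called higher), Cd68 (0.55 ± 0.17) and Adgre1 (0.43 ± 0.01). Clec4f was at -0.0013 ± 0.16 and Vsig4 at -0.07 ± 0.26. The list summed to 12700 to 16200 in the GALP and 10900 to 12300 in the control channels. Of 4 kidney markers 3 were at background in every channel. The part of any of these tissues in the UGT and GST ratios was not tested.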

How the data were processed

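Liver RNA pools of GALP-treated and saline-treated mice were compared on 4 Agilent whole mouse genome arrays with 500 ng of labelled RNA. Per the file headers, Agilent Feature Extraction 12.0.3.1 (the labels name 11.0.1.1) was used for background subtraction and LOWESS dye normalization. The deposited log10 ratio (Cy5 over Cy3), the p-value of each ratio and the processed intensity of each channel were used. The series table, with equal ratios already turned, served as an alternative.

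Ratios were put on the log2 scale as GALP over control. Outlier-marked spots (232 to 319 of 43379 per array) were dropped. Means were then taken over the spots of a probe (10 for Gsta4, some of them marked) and over the dye-swapped arrays of a pool. The brightest probe of a gene had the highest mean processed intensity. limma 3.58.1 in R 4.3.3 (lmFit, eBayes) tested the 2 pool ratios against 0 with Benjamini-Hochberg adjustment over 41037 probes. Both procedures were tested on simulated data: of 100 probes with a log2 change of 3, limma found 0 when all 41037 were adjusted together and 62 when the 15713 with signal were. Although the labels also assign the control channel to a weight loss group, the control was treated as 1 pool, as the paper describes it. The number of arrays limits the precision.

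Accessions of 48 of the 52 probes were in the RefSeq table, all under the same symbol. Full values were given to members called or with a ratio of 0.4 or more in size and 1 direction on 4 arrays. The members and lists were chosen with earlier results of these data known. The lists were those of cofactor supply, export and regulators, and markers of hepatocytes, bile duct, Kupffer, endothelial and stellate cells, intestine, stomach, pancreas, kidney and adipose tissue. The medians of the marker lists not given in the text were -0.12 for bile duct, 0.07 for endothelial cells, 0.19 for stellate cells, -0.24 for intestine, -3.63 for stomach, 0.07 for kidney (1 detected gene) and -0.38 for adipose tissue. Python 3.11.15 with pandas 2.3.3 was used.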

Additional observations from a re-analysis of the deposited data

Results flagged for a closer look

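Gstp1 and Gstm5 had both arrays of a pool on 1 side of 0 and both arrays of the other pool on the opposite side. These were 2 of the 34 detected members, near the share of 6.16% of all detected genes. For Gstp1 the difference between the pools (less minus greater weight loss) was -0.46 on the log2 scale, and its 2 probes gave the same order of the pools. For Gstm5 the difference was 0.13, with -0.07 in the greater-loss pool and 0.06 in the less-loss pool. It was larger in size than in 59.5% of all detected genes. Neither difference was tested, because each pool is 1 sample.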

How the results depend on the processing

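The count of members called by the rule of the methods was 0 in each direction and stayed 0 with normexp and loess, centring, the series table, no outlier filter, a lower fold of 1/1.5, any probe of a gene and probes above background in both channels. It was 1 higher, Ugt1a9, on the arrays with GALP in Cy5 alone and 1 higher, Gsta1, on those with GALP in Cy3 alone, with the looser p-value rule given above and without a p-value. With a pool left out it ranged from 0 to 1 higher (Gsta1, from the greater-loss pool alone), and 0 were lower. The limma count of 0 became 2 with normexp and loess (Gsta2 and Ugt2b35), 1 with the 4 arrays in a random block (Gsta2), where the correlation within pools was -0.389, and 9 at an unadjusted p under 0.05. It could not be run with a pool left out. It stayed 0 in the other 7 alternatives. The median of the UGT genes was -0.15, and -0.12 with centring, -0.18 with GALP in Cy5, -0.062 with GALP in Cy3 and -0.13 with all detected probes. With a pool left out it ranged from -0.15 to -0.13. The median of the GST genes was 0.03, and 0.095 with GALP in Cy5 and -0.0064 with undetected members included. With a pool left out it ranged from 0.02 to 0.06. Of the 34 members, 18 kept their sign in all 9 alternatives and 9 changed sign with normexp and loess or centring. No paired analysis was possible because the groups share no replicate source and the arrays of a pool hold the same extracts.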
